A study of Mus musculus with 15 samples.

Results

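Mitochondrial ATP synthase, the complex V of oxidative phosphorylation, was followed here through 10 of its nuclear subunit genes, of 44260 genes in the table. The genes were chosen by name: Atp5a1, Atp5b, Atp5c1, Atp5d and Atp5e of the catalytic head and its rotating stalk, Atp5g1, Atp5g2 and Atp5g3 of the c ring, and Atp5h and Atp5o of the fixed stalk. The list was drawn up with the allelic ratios of some of these genes already known. Their ratios are therefore given as a description, with no p-value, and calls of members in the fit over all genes are listed without being read as evidence.

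RNA was measured in 3 libraries of day 12 organoids grown from SpretB6 lines and titled C1, C2 and C3, called libraries 1, 2 and 3 here. Such lines carry a genome copy of the C57Bl/6J laboratory strain (B6) and a copy of Mus spretus (Spret) in the same cells. The organoids were grown from epiblast stem cells, and the labels give all 3 libraries the same treatment text. Every library has a B6 value and a Spret value for each gene, and these values are normalised read numbers rounded to whole numbers. The labels do not say whether the libraries came from separate cultures, and p-values below therefore cover only how these libraries differ from each other, possibly for technical reasons. The study also lists 12 samples of induced pluripotent stem cells from 4 crosses, which were not analysed here.

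The enzyme sits in the inner mitochondrial membrane. Protons that flow back through the c ring turn the central stalk, and the turning stalk drives the catalytic head to join ADP and phosphate into ATP, while the fixed stalk keeps the head from turning along. The alpha and beta subunits alternate around the head, with the catalytic sites mainly on beta. Neurons depend heavily on this enzyme, while dividing progenitors draw more of their ATP from glycolysis. The nuclear genes of the complex lie scattered over chromosomes, and all 10 genes studied here are autosomal.

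Allele columns summed to between 2088788 and 3027078 over all genes. The tissue label names epiblast stem cells, but the table carried dorsal forebrain markers at much higher values: 10 of 10 had a summed value of at least 20, and together they reached 15612 to 17281 per library. Of 6 pluripotency markers 2 reached that value, and the list summed to 69 to 136. Choroid plexus and hem markers (5 of 5 genes) reached sums of 3493, 961 and 642 in libraries 1, 2 and 3. Ventral forebrain markers (3 of 5) summed to 208 to 278, mesenchyme markers (5 of 5) to 393 to 503, muscle markers (3 of 5) to 81 to 170 and endoderm markers (0 of 3) to 17 to 55, and no marker of any list was at 0 in all libraries. Autosomal genes leaned slightly to B6: over the 15456 whose values averaged at least 10, the median log2 ratio (Spret over B6) stood at -0.13, with -0.12 to -0.13 in single libraries. The method of allele assignment is unknown here, and its part in this lean was not tested. X-linked genes of the pathway, such as Slc25a5 and Cox7b, were listed at 0 from Spret in every library and so were read from B6 alone. All 3 libraries come from 1 kind of cross, in which effects of strain and of the parent that gave the allele cannot be told apart.

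Promoters are shown for the members that leaned most to Spret (Atp5b and Atp5c1), for Atp5h, which leaned to B6, and for Atp5g1, whose alleles were nearly even. Windows reach from 250 bases before to 50 after the annotated start (RefSeq, GRCm38.p6) and give the B6 reference, so that no Spret difference can be read from them. Windows were available for 9 of the 10 members. None was available for Atp5a1, which leaned most to B6, and Atp5h came next after it. Capitals mark matches, on either strand, to the CCAAT box (CCAAT), the GC box (GGGCGG) and the ETS site (CCGGAAG).
Atp5b, chr10:128083057-128083356, plus strand: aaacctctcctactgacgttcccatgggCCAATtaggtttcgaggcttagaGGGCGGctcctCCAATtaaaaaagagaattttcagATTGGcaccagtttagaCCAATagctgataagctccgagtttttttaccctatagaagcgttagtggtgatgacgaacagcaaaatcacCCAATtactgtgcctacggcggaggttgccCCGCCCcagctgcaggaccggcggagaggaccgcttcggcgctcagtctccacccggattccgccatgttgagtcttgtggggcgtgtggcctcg
Atp5g1, chr11:96075582-96075881, minus strand: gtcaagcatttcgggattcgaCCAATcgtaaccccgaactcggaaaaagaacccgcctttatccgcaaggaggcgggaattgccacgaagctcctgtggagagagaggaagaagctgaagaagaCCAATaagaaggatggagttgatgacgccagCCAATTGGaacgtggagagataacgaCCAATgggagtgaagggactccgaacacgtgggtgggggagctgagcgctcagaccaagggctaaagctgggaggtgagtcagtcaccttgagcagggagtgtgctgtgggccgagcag
Atp5c1, downstream of 2 annotated starts, chr2:10080383-10080682, minus strand: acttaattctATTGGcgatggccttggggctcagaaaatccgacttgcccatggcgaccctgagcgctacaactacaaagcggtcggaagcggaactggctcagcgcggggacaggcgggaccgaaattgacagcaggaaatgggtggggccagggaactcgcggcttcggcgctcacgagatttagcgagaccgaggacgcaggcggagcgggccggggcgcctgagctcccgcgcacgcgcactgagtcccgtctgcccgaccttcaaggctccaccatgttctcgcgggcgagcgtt
Atp5h, chr11:115419870-115420169, minus strand: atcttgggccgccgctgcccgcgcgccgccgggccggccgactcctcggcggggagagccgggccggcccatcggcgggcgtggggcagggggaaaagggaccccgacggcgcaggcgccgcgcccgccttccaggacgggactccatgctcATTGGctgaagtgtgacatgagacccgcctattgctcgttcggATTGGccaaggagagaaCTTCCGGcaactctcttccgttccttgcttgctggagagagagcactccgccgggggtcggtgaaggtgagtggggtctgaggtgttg

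The CCAAT box was the motif found in most members, 6 of 9, and 37.4% of all 32851 windows hold it. Atp5b and Atp5g1 each had 5 copies, a number that 89 windows (0.27%) reached or passed. The copies in Atp5b were separate, while a pair of those in Atp5g1 overlapped on opposite strands and was counted as 2. The allelic ratios of this pair differ, at 0.70 and -0.01 on the log2 scale. The GC box stood in 3 of 9 members (Atp5b, Atp5e and Atp5g2) and in 35.7% of windows, and the ETS site in 2 of 9 (Atp5e and Atp5h) and 8.86% of windows. The core bound by NRF1, a factor known for nuclear genes of mitochondrial proteins, stood in Atp5g2 and in 0.97% of windows. The YY1 site and the TATA box (TATAAA) were in none of the 9 and in 0.63% and 13.6% of windows. Both strands were searched, and no motif contains another. A match is a description and not a shown binding site. Member windows were rich in CpG, with a median of 21 CpG dinucleotides against 7 over all windows.

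Atp5b, on chromosome 10 (128083307 to 128090388), encodes the catalytic beta subunit. From B6 it read 1320, 1064 and 1418 in libraries 1, 2 and 3, and from Spret it read 2025, 1875 and 2256. Every Spret value lay above every B6 value. The means were 1267 ± 183 for B6 and 2052 ± 192 for Spret (SD, n = 3), a log2 ratio of 0.70 ± 0.10 on the scale of log2(value + 1), or 1.63-fold. The Spret copy supplied 61.9% ± 1.69 of the values (SD, n = 3).

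Atp5a1, on chromosome 18 (77773768 to 77782869), encodes the alpha subunit, the partner of beta in the head. It read 1483, 1152 and 1481 from B6 and 1158, 886 and 1155 from Spret. Within each library B6 was the higher allele, although the highest Spret value, 1158, passed the lowest B6 value of 1152. The log2 ratio was -0.36 ± 0.01 (SD, n = 3), the narrowest spread among the members, and the single values were -0.36, -0.38 and -0.36. At 43.7% ± 0.207 the Spret share was below that of autosomal genes as a whole, which stood at 47.8% ± 0.115 (SD, n = 3).

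The values of the alpha and beta genes therefore stood in different proportions from the 2 alleles. Atp5b and Atp5a1 had the highest and the lowest mean ratio of the members, on a list drawn up with some ratios known. The quotients below restate these ratios and add no separate evidence. From B6 the quotient of Atp5a1 to Atp5b values was 1.12, 1.08 and 1.04 in libraries 1, 2 and 3, with a mean of 1.08 ± 0.04. From Spret it was 0.572, 0.473 and 0.512, with a mean of 0.519 ± 0.0499 (SD, n = 3). The quotients use values as deposited, with no correction for transcript length or for the number of bases that tell the alleles apart. The part of the unknown allele assignment in the ratios of single genes, these 2 included, was not tested.

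**Figure D1:**
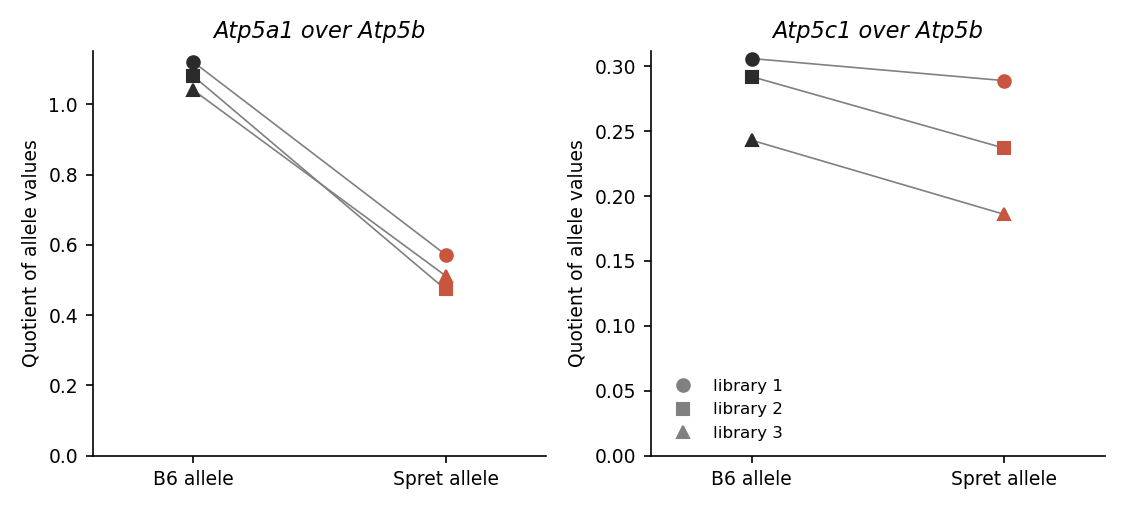
Quotient of the allele values of Atp5a1 to Atp5b (left) and of Atp5c1 to Atp5b (right) from the B6 and the Spret allele, with 1 line per library. The left quotient lies between 1.04 and 1.12 from B6 and between 0.473 and 0.572 from Spret, and the right one is lower from Spret in each of the 3 libraries.

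Atp5c1, on chromosome 2 (10056030 to 10080510), encodes the gamma subunit, the rotating shaft inside the head. Its B6 values were 404, 311 and 345 and its Spret values 585, 445 and 420. All Spret values were above all B6 values, and the log2 ratio was 0.44 ± 0.14 (SD, n = 3), or 1.36-fold. The gamma and beta genes thus leaned the same way, and the quotient of Atp5c1 to Atp5b was 0.28 ± 0.0331 from B6 and 0.237 ± 0.0515 from Spret. It was lower from Spret within each library, although the values of the alleles overlap across libraries.

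The small subunits at the foot of the central stalk were read at lower values. Atp5d, the delta subunit, on chromosome 10 (80138698 to 80145828), read 269, 242 and 338 from B6 and 284, 230 and 312 from Spret. Its alleles overlapped, with a log2 ratio of -0.04 ± 0.10. Atp5e, the epsilon subunit, on chromosome 2 (174461075 to 174464101), read 55, 48 and 32 from B6 and 74, 51 and 55 from Spret. Spret was the higher allele in 3 of 3 libraries, but the log2 ratio ranged from 0.09 to 0.76, with a mean of 0.42 ± 0.34 (SD, n = 3). At these low values the 2 alleles overlapped across libraries.

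**Figure D2:**
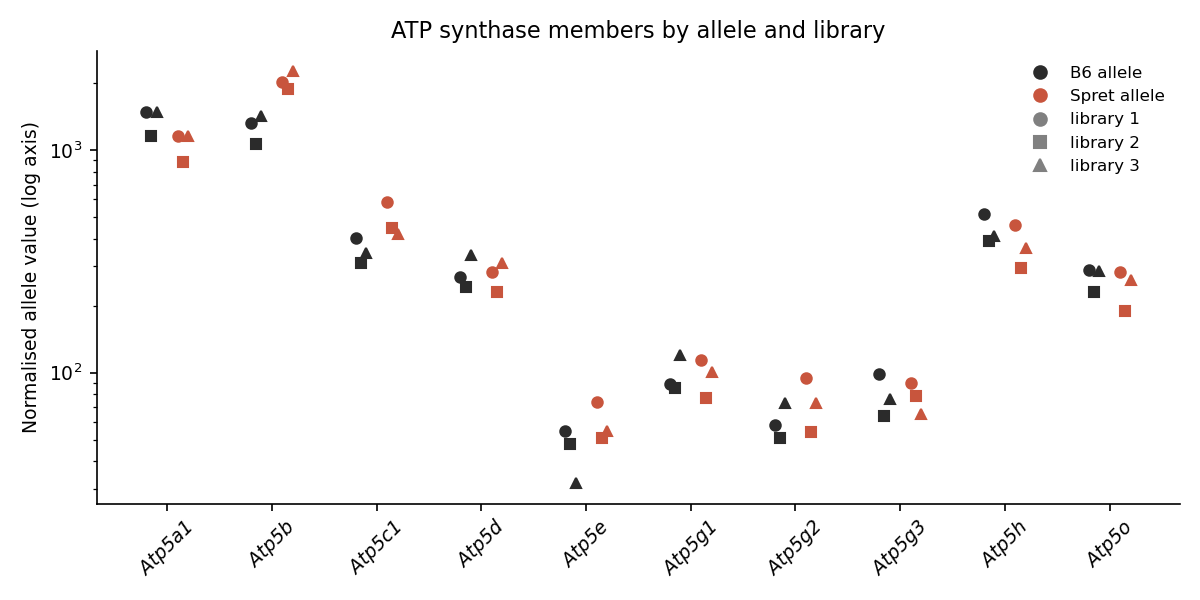
Normalised values of the 10 members on a log axis, B6 allele in black and Spret allele in red, with 1 symbol shape per library. The Spret values of Atp5b (1875 to 2256) and Atp5c1 (420 to 585) lie above all of their B6 values, while the alleles of the other members overlap. The share of all genes whose alleles do not overlap was not computed, so nothing is read from this contrast.

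The c ring is built from 3 genes that encode the same mature peptide behind different targeting sequences. Atp5g1, on chromosome 11 (96072793 to 96075694), read 89, 85 and 120 from B6 and 114, 77 and 101 from Spret, a log2 ratio of -0.01 ± 0.32. Atp5g2, on chromosome 15 (102662868 to 102671047), read 58, 51 and 73 from B6 and 95, 54 and 73 from Spret, at 0.26 ± 0.38. Atp5g3, on chromosome 2 (73908447 to 73912464), read 99, 64 and 76 from B6 and 90, 79 and 65 from Spret, at -0.02 ± 0.28 (SD, n = 3 each). None of the 3 genes kept its alleles apart, and the sign changed between libraries for Atp5g1 and Atp5g3.

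Summed over the 3 genes, the c subunit read 238 ± 35.1 from B6 and 249 ± 45.4 from Spret. Atp5g1 made up 41.1% ± 4.37 of the B6 sum and 39.0% ± 2.91 of the Spret sum, Atp5g2 25.4% ± 1.75 and 29.3% ± 3.21, and Atp5g3 33.5% ± 6.09 and 31.6% ± 5.37 (SD, n = 3). Each of these differences was smaller than the larger SD beside it except that of Atp5g2, whose share was higher from Spret within each library (23.6% and 31.8%, 25.5% and 25.7%, 27.1% and 30.5% from B6 and Spret in libraries 1, 2 and 3). Library 1 gave the highest ratio of 7 of the 10 members, Atp5g1 (0.35) and Atp5g2 (0.70) among them. For Atp5a1 this rests on -0.357 against -0.358 in library 3. The share of all genes with their highest ratio in library 1 was not computed, so nothing is read from the count. Library 1 was also the library with the highest sum of choroid plexus and hem markers. Their part in these ratios was not tested.

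Of the fixed stalk, Atp5h, on chromosome 11 (115415691 to 115419919), encodes subunit d. It read 517, 390 and 413 from B6 and 462, 296 and 362 from Spret. B6 was higher in 3 of 3 libraries while the alleles overlapped across them, and the log2 ratio was -0.25 ± 0.13. Atp5o, on chromosome 16 (91925223 to 91931630), encodes the oligomycin sensitivity conferring protein that ties the stalk to the head. It read 290, 230 and 286 from B6 and 282, 190 and 262 from Spret, a log2 ratio of -0.15 ± 0.12 (SD, n = 3). Its ratio was also below 0 in 3 of 3 libraries, and its mean was about that of the median autosomal gene.

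In order of mean log2 ratio the members ran from Atp5b (0.70) through Atp5c1 (0.44), Atp5e (0.42), Atp5g2 (0.26), Atp5g1 (-0.01), Atp5g3 (-0.02), Atp5d (-0.04), Atp5o (-0.15) and Atp5h (-0.25) to Atp5a1 (-0.36). Only Atp5b stood apart from its neighbour, with 0.62 as its lowest library value against 0.53 as the highest of Atp5c1. It was not apart from all members, since Atp5e (0.76 in library 3) and Atp5g2 (0.70 in library 1) passed it in those libraries (0.67 and 0.62). All other neighbours overlapped.

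**Figure D3:**
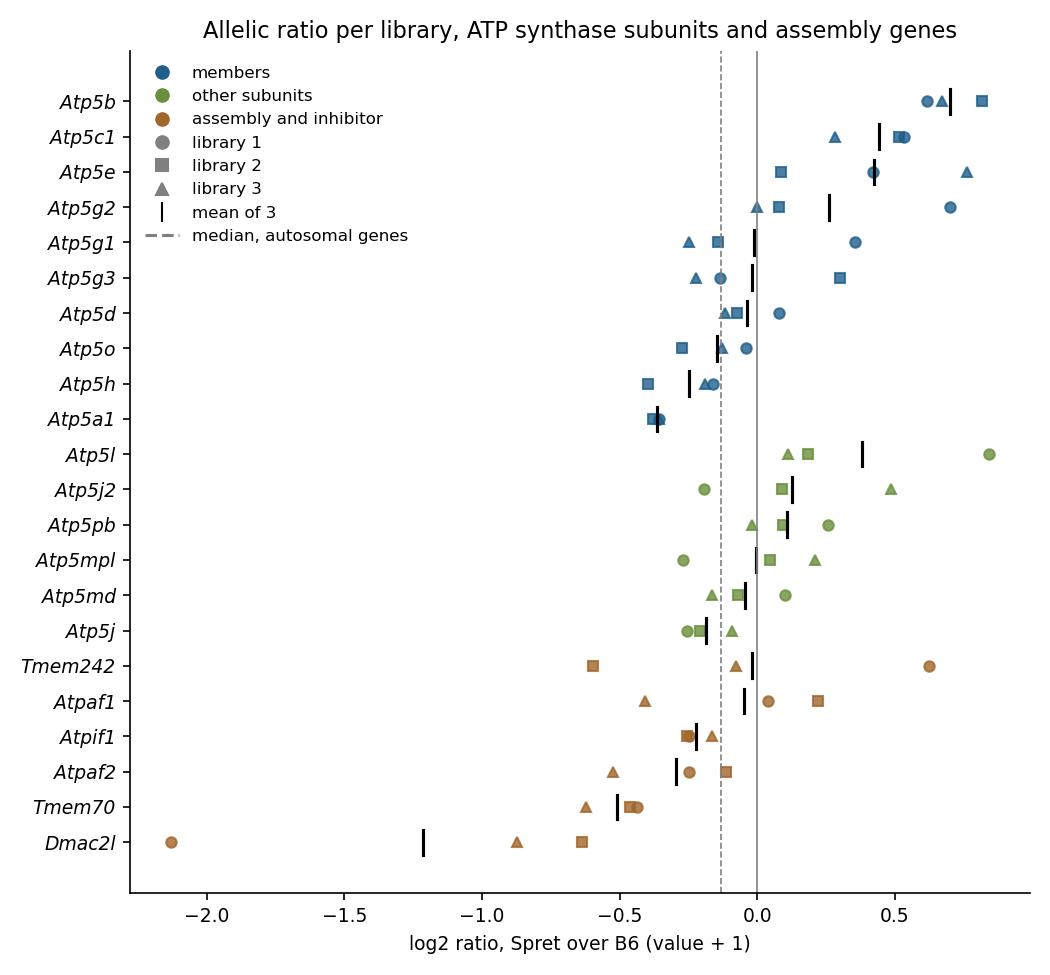
Log2 ratio of Spret to B6 (value + 1) in each library for the 10 members, 6 other subunits and 6 assembly or inhibitor genes, with a black bar at the mean of the 3 libraries. The dashed line is the median of autosomal genes at -0.13. Atp5b (0.62 to 0.82) lies to the right of every other member's mean, but single values of Atp5e (up to 0.76) and Atp5g2 (up to 0.70) fall within its range. Atp5a1 (-0.38 to -0.36) has the narrowest spread of the members.

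All 10 members passed the filter on low values and entered a limma fit over all genes, in which alleles are paired within a library. There, 4 of 10 members were called at an adjusted p under 0.05, Atp5b and Atp5c1 toward Spret and Atp5a1 and Atp5h toward B6. The background is 28.4% of 15456 autosomal genes called, 7.78% toward Spret and 20.7% toward B6. Calls were more frequent among abundant genes. With X-linked genes included, 4852 of 15985 were called, and 3640 of 9232 at a mean of at least 50. Since the list was made with these ratios known, nothing is read from the 4 calls. With each library's ratios centred on the autosomal median, which shifts values by 0.12 to 0.13, 3 members were called, 2 toward Spret and 1 toward B6. Then Atp5h (-0.13) was not called, and Atp5d, Atp5g1 and Atp5g3 moved to 0.09, 0.11 and 0.10, so that the sign of these 3 depends on the scaling. The background is then 26.8% called, 13.3% toward Spret and 13.5% toward B6. The call of Atp5h also ended without any 1 of the 3 libraries. The calls of Atp5a1, Atp5c1 and Atp5h ended without limma's trend and without the pairing, and those of Atp5c1 and Atp5h with no filter on low values.

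The members together made up 19.4, 17.4 and 17.0 of every 10000 units of summed value in libraries 1, 2 and 3. Their Spret share was 53.0% ± 0.5 (SD, n = 3), above the 47.8% of autosomal genes. Atp5b carried 36.7% ± 2.06 of all member values. With Atp5b left out, an addition made after its values were seen, the Spret share of the other 9 was 47.8% ± 1.14.

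Levels of both alleles together, per kilobase of the principal transcript, were highest for Atp5b at 1730 ± 192, followed by Atp5h at 1300 ± 240, Atp5a1 at 987 ± 140 and Atp5c1 at 718 ± 113 (normalised values per kilobase, SD, n = 3). Atp5b and Atp5h overlapped, as did Atp5a1 and Atp5c1, and Atp5h stayed above Atp5a1 in all libraries. Atp5o (613 ± 97.5) and Atp5d (600 ± 95.7) overlapped too. The c ring genes and Atp5e were lowest, from 221 ± 38 for Atp5g3 to 328 ± 50.7 for Atp5g1, and neighbours in that order overlapped. Reads enter these values only where an allele could be told, so a gene with few informative bases is understated. In bulk libraries, fewer cells of a type and less RNA per cell cannot be told apart.

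Some members have near copies in the genome that could take or give reads. Every 50-base stretch of the principal Atp5g2 transcript also occurs in a transcript of another annotated gene, Gm10175, whose own values summed to 1 over all 6 columns. Gm10231 holds all of these stretches too and has no values here, so its reads are unknown. For Atp5g1 the share was 66.0% (chiefly Gm10039, which summed to 5), for Atp5h 50.5% (Gm10250, 8) and for Atp5o 34.0% (Gm5436, 15, and the antisense gene D430001F17Rik). It was 6.0% for Atp5c1, chiefly Gm8722, which summed to 11, and Atp5c1-ps, which has no values here. The share was 3.3% for Atp5a1, where the overlapping gene Haus1 is the only match, 0.9% for Atp5b and 0.0% for Atp5d, Atp5e and Atp5g3. The ratios of Atp5g1, Atp5g2, Atp5h and Atp5o are therefore less certain than those of Atp5b and Atp5a1. Rows for Atp5k-ps2 and Atp5l-ps2, named as pseudogenes, held 4 and 1 in all.

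**Figure D4:**
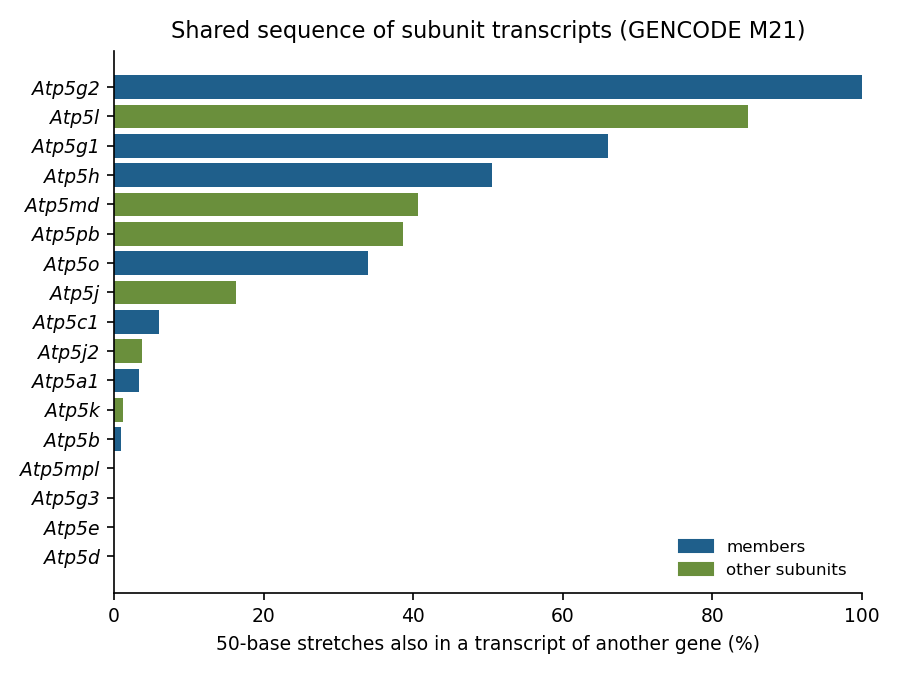
Share of 50-base stretches of each subunit's principal transcript that also occur, on either strand, in a transcript of another annotated gene (GENCODE M21, GRCm38). The bar of Atp5g2 fills the axis, and bars reach 66.0% for Atp5g1 and 50.5% for Atp5h, and are at most 6.0% for Atp5a1, Atp5b and Atp5c1.

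Whether counting used strand is not given, so genes that overlap a member cannot be told apart from it where they share bases. Cbarp, on the opposite strand of Atp5d, had a ratio of -0.07 ± 0.14, near that of Atp5d. The antisense gene D430001F17Rik beside Atp5o read 81, 82 and 94 from B6 and 54, 37 and 56 from Spret, a ratio of -0.81 ± 0.28 (SD, n = 3). This gene leaned to B6 more than Atp5o in every library. Haus1, next to Atp5a1, summed to 73.3 per library, far below the 2438 of Atp5a1.

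The 7 other nuclear subunits listed belong to the membrane part and the fixed stalk, and subunits encoded by mitochondrial DNA were not followed here. Of these, 6 were abundant enough to test and 0 were called by limma, where the background is 28.4% of autosomal genes. With so few genes, this count is not read as a sign of even alleles. In the same fit 0 of the 6 had an unadjusted p under 0.05 (the lowest was 0.062). The highest values belonged to Atp5pb, subunit b of the fixed stalk, which read 389, 300 and 468 from B6 and 465, 320 and 462 from Spret (log2 ratio 0.11 ± 0.08, SE, limma adjusted p = 0.305), and Atp5j, coupling factor 6, at -0.18 ± 0.10 (limma adjusted p = 0.178). The alleles of Atp5pb overlapped. Atp5md, a small subunit of the dimer, was at -0.04 ± 0.10, Atp5j2, subunit f, at 0.13 ± 0.15, Atp5l, subunit g, at 0.38 ± 0.19, and Atp5mpl at -0.004 ± 0.18 (SE, limma adjusted p from 0.143 to 0.989). With centred ratios Atp5pb was called toward Spret (0.23, limma adjusted p = 0.0344), as were 13.3% of autosomal genes. Atp5k, subunit e, read 5, 6 and 6 from B6 and 8, 3 and 1 from Spret, too low to test. Shared stretches reached 84.8% in Atp5l, 40.6% in Atp5md and 38.7% in Atp5pb, and Atp5j overlaps Gabpa, which lies on the opposite strand and had a ratio of 0.06 ± 0.14 (SD, n = 3).

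Among assembly factors and regulators of the enzyme, 2 of 6 tested genes were called, both toward B6, where the background is 20.7%. Atpif1, the inhibitory factor that stops the enzyme from running in reverse, read 1168, 1069 and 908 from B6 and 984, 897 and 810 from Spret. The Spret value was the lower in 3 of 3 libraries, and the ratio averaged -0.22 ± 0.05 on the log2 scale (SE, limma adjusted p = 0.00498). The call was lost with centred ratios (-0.10, limma adjusted p = 0.181), without library 1 (0.0659) and with no pairing, no trend or no filter (0.473, 0.224 and 0.0839). Gm12999, an antisense gene over Atpif1, had a ratio of -0.13 ± 0.10 (SD, n = 3) at a summed level of 637.

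Dmac2l, also called coupling factor B, read 34, 13 and 32 from B6 and 7, 8 and 17 from Spret. The ratio averaged -1.21 ± 0.36 (log2, SE, limma adjusted p = 0.0189), and it was -0.76 without library 1 (0.213), where the call ended, as it did without library 3 (0.0623). Without the pairing, the trend or the filter its limma adjusted p was 0.138, 0.09 and 0.223. Tmem70, a factor for building the c ring, was lower from Spret in 3 of 3 libraries at -0.51 ± 0.19 without being called (limma adjusted p = 0.0625). Atpaf1 and Atpaf2, chaperones of the beta and alpha subunits, were at -0.05 ± 0.23 and -0.29 ± 0.20, and Tmem242 at -0.02 ± 0.23 (SE, limma adjusted p from 0.288 to 0.964). Fmc1 read 14, 14 and 10 from B6 and 8, 4 and 9 from Spret, below the limit for testing.

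The respiratory chain builds the proton gradient that the enzyme spends, and its subunits were called in both directions. Of 34 tested autosomal subunits of complex I, 19 were called (55.9%, against 28.4% of autosomal genes), 8 toward Spret and 11 toward B6, with ratios from -1.96 to 1.56. At a mean of at least 50, with X-linked genes included, 17 of 29 were called, where the background is 3640 of 9232 genes. Ndufa6 read 383, 278 and 415 from B6 and 95, 66 and 117 from Spret (-1.96 ± 0.10, SE, limma adjusted p = 9.87e-10). Ndufv3 read 326, 208 and 366 from B6 and 482, 369 and 515 from Spret (0.63 ± 0.08, limma adjusted p = 3.91e-05). The alleles of Ndufa6 did not overlap, and those of Ndufv3 were only just apart (at most 366 from B6 and at least 369 from Spret). With centred ratios the split was 10 toward Spret and 7 toward B6, where the background is 13.3% and 13.5%.

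Of 25 autosomal genes listed for complexes II to IV, cytochrome c (Cycs) among them, 13 were called (52.0%, against 28.4% of autosomal genes), 6 toward Spret and 7 toward B6. Those directions have backgrounds of 7.78% and 20.7%. With centred ratios 8 and 6 were called, where the background is 13.3% and 13.5%. At a mean of at least 50, with X-linked genes included, 13 of 22 were called. Cox7a2l, a factor that joins respiratory complexes, was at -1.78 ± 0.09 (SE, limma adjusted p = 4.51e-10) and Sdha, the flavoprotein of complex II, at 0.30 ± 0.09 (limma adjusted p = 0.0183). The call of Sdha ended without library 1 or library 2 (0.0666 and 0.186), at 0.17 without library 2. It also ended without the pairing, the trend or the filter, as did that of Ndufv3 without the pairing (0.121) or the filter (0.0683). Whether the ratios of these lists differ from those of the ATP synthase subunits was not tested.

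**Figure D5:**
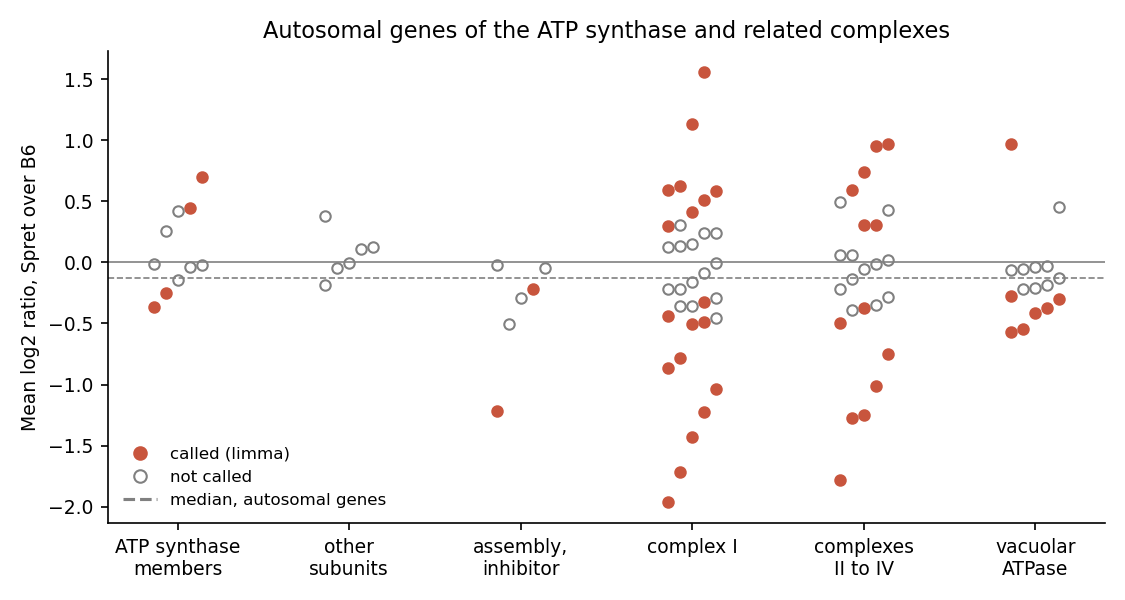
Mean log2 ratio of Spret to B6 over 3 libraries for tested autosomal genes of the ATP synthase and of related complexes, filled red where limma called the gene and open where it did not. ATP synthase members lie between -0.36 and 0.70 and complex I subunits between -1.96 and 1.56, and the dashed line is the median of autosomal genes at -0.13.

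The transport list holds carriers of ADP, ATP and phosphate, the porins and the creatine kinase Ckmt1. Of its 8 tested autosomal genes, 3 were called (37.5%), all toward B6, where the background is 20.7% (13.5% with centred ratios). Slc25a4, the ADP and ATP exchanger, read 432, 412 and 472 from B6 and 244, 225 and 261 from Spret, with no overlap. It stood at -0.85 ± 0.08 on the log2 scale (SE, limma adjusted p = 6.3e-07). The others, named after their values were seen, were the phosphate carrier Slc25a3 (-0.33 ± 0.11, limma adjusted p = 0.0414) and the porin Vdac3 (-0.40 ± 0.12, limma adjusted p = 0.02). Both of these calls ended without library 2 (limma adjusted p of 0.251 and 0.145), without the pairing, the trend or the filter, and with centred ratios, where Slc25a4 alone of the 8 was called. That of Slc25a3 also ended without library 3 (0.233) and that of Vdac3 without library 1 (0.131). Slc25a3 read 210, 214 and 345 from B6 and 214, 144 and 255 from Spret, so that Spret was slightly the higher allele in library 1. Slc25a5, a further exchanger, is X-linked and was read at 97.0 ± 12.5 from B6 (SD, n = 3).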

How the data were processed

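The deposited table holds 44260 genes by 6 allele columns, and each value is a score, which the authors' own naming of the deposited table describes as allele-specific, normalised counts. The values are whole numbers. Ribosomal RNA was depleted and 80M reads were planned per sample, per the labels' protocols, and the genome build named in the submitters' processing notes is mm10. Aligner, allele assignment and counter are not given in the sources used here. Among the whole numbers up to 200, no gene takes 27 of them in library 1 or 43 in library 2, as would follow from scaling by about 1.16 and 1.27 and rounding. In library 3 no such gaps were seen and its scaling is unknown, so no test for raw reads was used.

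Ratios are log2(Spret + 1) minus log2(B6 + 1). Genes with a mean of at least 10 were tested (15985) in R 4.3.3 by limma 3.58.1, fitting a library term, an allele term and an intensity trend, two-sided, Benjamini-Hochberg adjusted over all tested genes. Residual degrees of freedom were 2, and limma's prior added 12.3. Alleles of a library are paired because they come from the same RNA. Positions are from RefSeq GRCm38.p6, and transcripts from GENCODE M21 (principal, best supported, then shortest). Members and lists were chosen with earlier results of these data known. Named are all members, other subunits and assembly genes, and per further list the called gene of highest summed value in each direction, and the 3 genes nearest in ratio to Atp5b and to Atp5a1, of which 1 is not reported here.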

Additional observations from a re-analysis of the deposited data

How the results depend on the processing

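Over all genes, 4852 calls of 15985 tested became 1236 of 44260 with no filter on low values. Of the same 15985, 2229 were called without the trend and 1537 with no replicate block. Lists are given here in the order members, assembly and inhibitor, transport, complex I, complexes II to IV, vacuolar ATPase and regulators. As reported, with X-linked genes included, 4, 2, 4, 21, 14, 8 and 4 were called of 10, 6, 9, 36, 26, 17 and 16 tested. With no filter, where 7 assembly and 11 transport genes were tested, these were 2, 0, 2, 6, 5, 2 and 1. They were 1, 0, 2, 13, 6, 2 and 1 without the trend. With no replicate block (alleles not paired by library) they were 1, 0, 2, 9, 7, 2 and 1. With centred ratios, at 4596 calls over all genes, the other subunits went from 0 to 1, assembly genes to 1, transport to 2 and the vacuolar ATPase to 4. At a mean of at least 50, assembly genes went to 1, because Dmac2l was no longer tested.

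Leaving out 1 library at a time gave 2667 to 4001 calls over all genes, of 15662 to 16322 tested. The lists had 3 calls in members each time, 0 to 2 in assembly, 2 to 3 in transport, 13 to 16 in complex I, 9 to 12 in complexes II to IV, 4 to 5 in the vacuolar ATPase and 1 in regulators. Library 1 had the most effect over all genes (2667 without it). Apart from the settings named, the cause of these moves was not tested. Pseudocounts of 0.5 and 5 and a fit of autosomal genes alone kept every count within 1.5 times, and of the called ratios recomputed in each setting that tests the gene, 0 changed sign. The summed level of the members (9072 ± 1090) was 9081 with libraries scaled to the same sum, and their Spret share stayed at 53.0% with values summed over libraries. Reads per value limit the low genes most: Atp5e, the c ring genes, Dmac2l and Atp5k.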

Other observations

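The vacuolar ATPase, a related rotary enzyme that spends ATP to pump protons into vesicles, had 7 of 16 tested autosomal subunits called, 1 toward Spret and 6 toward B6, against a background of 28.4%. Atp6v0c, its ring subunit, read 80, 47 and 71 from B6 and 111, 110 and 167 from Spret, with no overlap between alleles. Its ratio averaged 0.97 ± 0.17 (log2, SE, limma adjusted p = 0.000495). The call ended without the trend (0.0533) and with no filter (0.128). Atp6v1g1, a stator subunit, read 444, 327 and 354 from B6 and 283, 228 and 244 from Spret, at -0.57 ± 0.08 (limma adjusted p = 7.77e-05), and lost its call without the pairing (0.0723). With centred ratios 3 of the 16 were called, 2 toward Spret and 1 toward B6, against a background of 26.8%.

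Of 15 tested autosomal regulators of nuclear mitochondrial genes, 3 were called, against a background of 28.4%, with 2 toward Spret and 1 toward B6. Yy1 was at -0.34 ± 0.10 (SE, limma adjusted p = 0.017) and lost its call with centred ratios (0.119), without any 1 library (0.0649 to 0.102) and without the trend, the pairing or the filter (0.104 to 0.357). Tfb2m, a mitochondrial transcription factor, was at 0.52 ± 0.175 (limma adjusted p = 0.0367), a call that ended without any 1 library (0.0655 to 0.158) and without the trend, the pairing or the filter (0.0543 to 0.166). Esrrg, named after its values were seen, was at 0.94 ± 0.32 (limma adjusted p = 0.0379), and its call too ended without any 1 library (0.0721 to 0.191) and without the trend, the pairing or the filter (0.0608 to 0.175). Hcfc1 is X-linked and read 860 ± 136 from B6.

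Among 2402 tested autosomal genes outside the members with a summed value of at least 500, the genes whose 3 log2 ratios lay closest to Atp5b included Mdga1 (distance 0.077, mean ratio 0.66) and Rps19 (0.09, 0.72). Closest to Atp5a1 were Foxn3 (0.023, -0.37), Zfp445 (0.024, -0.37) and Shtn1 (0.029, -0.36). Distances are Euclidean over 3 libraries, and with 3 values per gene they describe these libraries only.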
